A study of Danio rerio with 9 samples.

Results

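Gene expression was compared between affected and unaffected MZ*mondoa* embryos of the zebrafish, that is, between mutants of the same genotype whose epiboly was disturbed or looked normal. The comparison used 6 of the 9 RNA sequencing libraries of the series, the 3 labelled as affected and the 3 labelled as unaffected mutants. All 6 came from whole embryos that carried the *mondoa* allele ka405, a CRISPR-induced frameshift in an early exon. MZ stands for maternal-zygotic: the parents were homozygous mutants, so neither the egg nor the genome of the embryo provided an intact *mondoa*. The remaining 3 libraries, of wild-type embryos with normal epiboly, contributed to the estimate of the spread and are given as side values. A stage of 5 hours post fertilization is labelled for every library, whereas the methods of the study place sampling later, once disturbed embryos could be recognised. Embryos were sorted by this phenotype and pooled, and no other treatment is labelled for any group.

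Epiboly is the movement in which the blastoderm of the fish embryo spreads over the yolk cell until it has covered it. The enveloping layer, the outer epithelium of the blastoderm, is attached at its margin to the yolk syncytial layer, a layer of nuclei and cytoplasm at the surface of the yolk cell, and these layers move together ahead of the deep cells that form the embryo proper. MondoA is a glucose-responsive transcription factor that binds DNA together with its partner Mlx, and the microtubules of the yolk cell and the steroid pregnenolone are known to take part in epiboly in zebrafish. The comparison asks what distinguished the mutants in which epiboly failed from mutants of the same genotype in which it did not.

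Total exonic counts ranged from 27567897 to 30897569 in the unaffected and from 29653702 to 32417640 in the affected libraries. At these depths a count of 0 allows up to 3 counts, which is at most 0.109 CPM (counts scaled to the TMM-adjusted library size) and covers counting error only. Mitochondrial genes took 1.62% to 1.90% of the counts in unaffected and 1.52% to 1.84% in affected libraries, and ribosomal protein genes 2.88% to 3.84% and 2.59% to 3.11%. The labels do not say that the libraries came from separate clutches, so the p-values measure only the spread between these libraries. Markers of the enveloping layer, yolk syncytial layer, endoderm, presomitic mesoderm, notochord, neural plate and germ cells were found, as in whole embryos, and 0 markers had 0 counts in all 9 libraries. The yolk syncytial marker *mxtx2* had 0 counts in 3 of the 9 libraries, reached at most 0.126 CPM and was not tested. In pooled whole embryos, fewer cells of a type and less RNA per cell cannot be told apart. *mlxip*, the symbol of *mondoa*, was at 21, 20.8 and 13 CPM in the unaffected and 15, 16.1 and 12.8 CPM in the affected libraries against 111, 113 and 51.9 CPM in wild-type, so the mutant groups were both low and overlapped. *txnip* (ENSDARG00000036107), a well-known target of MondoA in mammals, was at 2.26, 1.69 and 2.24 CPM in the unaffected and 2.45, 1.41 and 2.51 CPM in the affected libraries, against 133, 132 and 167 CPM in wild-type. Another identifier named *txnip*, ENSDARG00000070000, differed by -1.314, 0.793 and -0.007 on the log2 scale between affected and unaffected libraries of number 1, 2 and 3.

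Affected embryos differed from unaffected embryos in 507 of 16962 genes tested, of which 319 were higher and 188 lower in affected embryos (edgeR quasi-likelihood test, adjusted p under 0.05). These were 2.99% of the genes tested, 1.88% called higher and 1.11% called lower. The change was at least 2-fold in 101 genes called higher and 75 called lower, and the median size among called genes was 0.81 on the log2 scale. All 507 had groups that did not overlap. Passing the threshold with 3 libraries a group nearly requires this, so it is no added evidence. Over all genes the affected libraries were all higher in 13.3% and all lower in 12.1%. The median log2 fold change of all genes tested was -0.007, and 49% were positive.

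Libraries of the same replicate number resembled each other, most clearly those of number 3. Deviations from the group means correlated at 0.17, 0.24 and 0.46 between affected and unaffected libraries of the same number, and at -0.34 to 0.12 between libraries of different numbers. Affected library 1 correlated at 0.17 with unaffected library 1 and at 0.12 with unaffected library 2. Affected library 2 correlated at 0.24 with unaffected library 2 and at 0.08 with unaffected library 1. Deviations within a group cancel out, so library 3 alone can shape all of these values, and the pairing is not settled by them. A fit that took the numbers as a block passed 1399 genes (8.25%), 827 higher (4.88%) and 572 lower (3.37%). The block calls held all 507 genes found without the block. On the first principal component of the 6 mutant libraries, which held 47.3% of the variance, the affected libraries lay at 35.6, 32.8 and 9.09 and the unaffected libraries at -19.7, -3.22 and -54.6. Both groups kept apart on this axis, but library 3 of either group lay lower than its 2 companions on the first and on the second component.

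**Figure D1:**
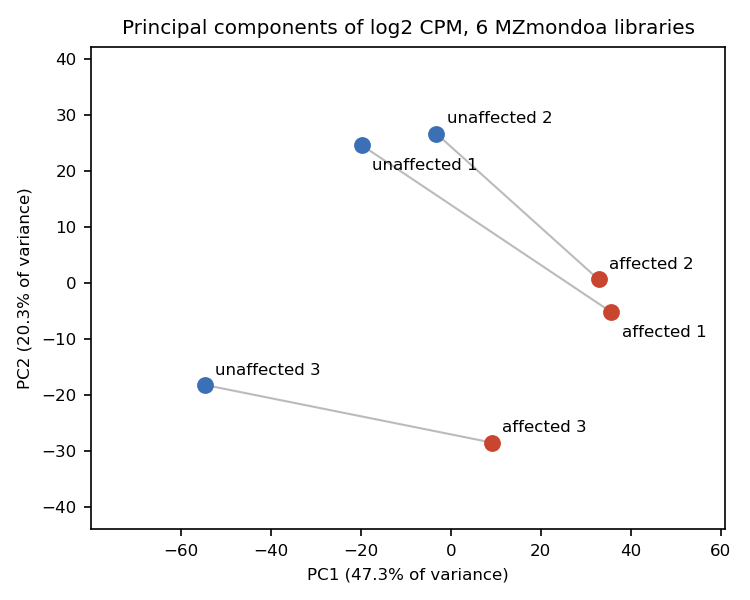
Position of the 6 MZmondoa libraries on the first (x axis, 47.3% of the variance) and second principal component (y axis, 20.3%) of log2 CPM, with grey lines joining libraries of the same replicate number. Every affected library (red) lies to the right of every unaffected library (blue), and library 3 of each group lies lowest.

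Single libraries weighed heavily on the number of calls. Without affected library 1, 2 or 3, 67, 42 and 333 genes passed, and without unaffected library 1, 2 or 3, 48, 511 and 97 (edgeR). Among the 507 genes, 105 passed in 0 of these 6 fits and 27 in all 6. DESeq2 called 1242 genes, 492 of which were among the 507.

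**Figure D2:**
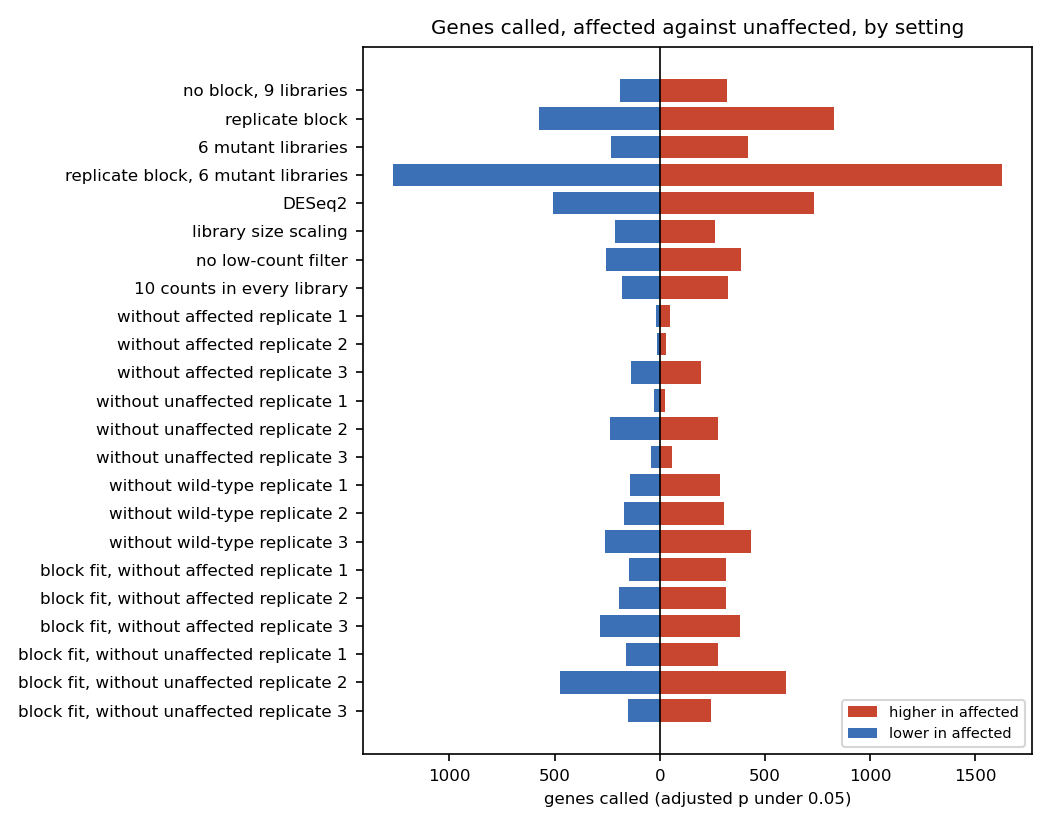
Number of genes called higher (right, red) and lower (left, blue) in affected embryos under each way of fitting, at an adjusted p under 0.05. The fits with the replicate block on all 9 or on the 6 mutant libraries and the DESeq2 fit give the longest bars, and leaving out affected library 1 or 2 or unaffected library 1 or 3 without the block gives the shortest, at 42 to 97 genes in all.

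The 27 genes that passed whichever mutant library was left out comprised 16 higher and 11 lower in affected embryos. Log2 differences are affected minus unaffected, as fitted by edgeR. The smallest adjusted p of all genes belonged to *mid1ip1a* (ENSDARG00000041051), the counterpart of a mammalian protein that promotes the assembly of acetyl-CoA carboxylase into active filaments. It was at 41.6, 45.7 and 37.8 CPM in the unaffected libraries and at 137, 178 and 146 CPM in the affected ones. Every affected library was far above every unaffected library, which in turn were close to the wild-type libraries (32.8, 38 and 32.4 CPM; log2 difference 1.88 with SE 0.12, adjusted p = 0.000367 by edgeR).

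Of the other genes called higher in all of these fits, *elovl3* (ENSDARG00000038639), a fatty acid elongase, was at 20.5 ± 2.62 CPM in unaffected and 41.3 ± 2.39 CPM in affected embryos (SD, n = 3; log2 difference 1.01 with SE 0.12, adjusted p = 0.00556 by edgeR). *pla2g15*, a lysosomal phospholipase (log2 0.69, adjusted p = 0.00651), and *acss1*, a mitochondrial acetyl-CoA synthetase (log2 0.73, adjusted p = 0.00614), changed less. The largest rise of these 16 belonged to *nfil3-6* (ENSDARG00000087188), which encodes a bZIP transcription factor, at 1.47, 0.528 and 0.411 CPM in the unaffected and 8.06, 6.29 and 6.36 CPM in the affected libraries (log2 difference 3.11 with SE 0.42, adjusted p = 0.00965 by edgeR). The remaining ones with a gene name were *cntf* (1.58), which encodes a cytokine of the interleukin 6 family, *abcc6b.2*, an ABC transporter (1.21), *ftr82* of the fish TRIM family (1.15), *mical3b*, a Mical family oxidoreductase (1.03), *gucy2g*, a guanylate cyclase receptor (0.98), and *ednra*, an endothelin receptor (0.92), together with *jun*, *fosl1*, *bcl2l10* and *cyp11a1* described further on; 1 had no plain symbol.

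Of the 11 genes called lower in all of these fits, *ano1* (ENSDARG00000102335), a calcium-activated chloride channel, was at 27.6, 29.3 and 30.6 CPM in the unaffected and 12.7, 12.6 and 13.9 CPM in the affected libraries (log2 difference -1.15 with SE 0.10, adjusted p = 0.00159 by edgeR). *itpr2*, a calcium release channel of the endoplasmic reticulum, was lower as well (log2 -1.06, adjusted p = 0.00409; edgeR). *acsl3a* (ENSDARG00000032079), a long-chain acyl-CoA synthetase, was at 14.4, 13.6 and 15.9 CPM in the unaffected and 5.13, 5.65 and 7.24 CPM in the affected libraries (log2 difference -1.28 with SE 0.14, adjusted p = 0.0051 by edgeR). In each of these genes the groups were well apart and the wild-type mean (35.5, 33.6 and 18.1 CPM) was on the side of the unaffected embryos. Only 1 of the 2 identifiers named *pla2g4a* was among the 11, ENSDARG00000024546, a cytosolic phospholipase A2 (log2 -1.52, adjusted p = 0.00394). *rapgef3*, an exchange factor for Rap activated by cyclic AMP (log2 -1.19, adjusted p = 0.0057), *prdm1b*, a transcriptional repressor of the Prdm1 family (log2 -1.001, adjusted p = 0.00159), and *rnf145*, a membrane ubiquitin ligase of the endoplasmic reticulum (log2 -0.73, adjusted p = 0.0057), also fell. The others were *krt5*, *ppl*, *cast* and *fezf2*, which belong to the tissue groups that follow.

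**Figure D3:**
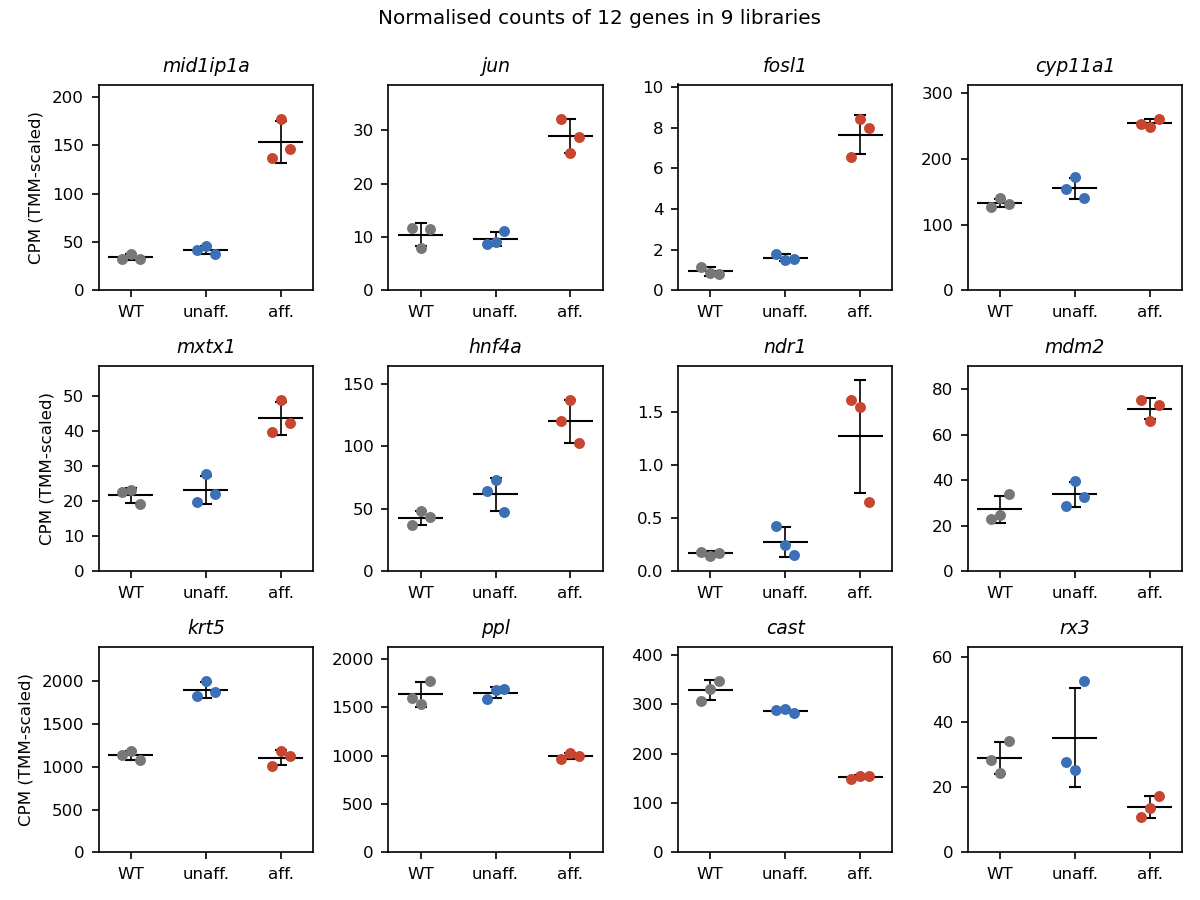
Normalised counts (CPM, y axis from 0) of 12 genes in the wild-type (WT, grey), unaffected (blue) and affected (red) libraries, with the mean (line) and SD (bar) of each group. In every panel the affected and unaffected points do not overlap, and wild-type lies on the side of the unaffected libraries except for krt5, where it lies with the affected ones.

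Several keratin and plakin genes of the enveloping layer fell in affected embryos. Of 44 tested genes on a list for this layer, 7 fell and 0 rose, against 1.11% and 1.88% of all genes. With the block 15 fell and 3 rose, against 3.37% and 4.88%. The list's median log2 fold change was -0.21, and 13 members were positive. *krt5* (ENSDARG00000058371), a keratin, was at 1831, 2007 and 1873 CPM in the unaffected and 1012, 1181 and 1133 CPM in the affected libraries (log2 difference -0.78 with SE 0.09, adjusted p = 0.0057 by edgeR). Its groups did not overlap, but wild-type embryos had 1135, 1189.8 and 1081 CPM, the level of the affected ones. The same held for *krt97*, at 513, 562 and 614 CPM in wild-type and 458, 553 and 573 CPM in affected libraries. The unaffected libraries had 710, 819 and 811 CPM of it. *ppl* (ENSDARG00000101043), or periplakin, which links keratin filaments to cell junctions, was at 1587, 1679 and 1682 CPM in the unaffected and 964, 1023 and 992 CPM in the affected libraries (log2 difference -0.73 with SE 0.09, adjusted p = 0.0057 by edgeR), and here wild-type (1630.0 CPM on average) was level with the unaffected. The other keratins called lower were *krt97* (log2 -0.56, adjusted p = 0.0295), *cyt1* (log2 -1.25, adjusted p = 0.0368) and *cyt1l* (log2 -1.18, adjusted p = 0.0386), beside *dsp* (desmoplakin; ENSDARG00000076673; log2 -0.65, adjusted p = 0.0124) and the calpain protease *capn9* (log2 -0.36, adjusted p = 0.0447; edgeR).

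The keratin *krt4* was at 4913 ± 521 CPM in unaffected and 3323 ± 331 CPM in affected embryos (SD, n = 3) and missed the threshold without the block (adjusted p = 0.0595) but passed with it (adjusted p = 0.0028, edgeR). *anxa1*, another member, pointed the other way with a log2 fold change of 0.83. Its groups did not overlap, but it did not pass in either fit (edgeR adjusted p = 0.162 and 0.116). The largest log2 fold change on the list was 1.84. Affected libraries were all higher in 7 members and all lower in 16, against 13.3% and 12.1% of all genes. DESeq2 called 6 members higher and 13 lower. The abundant keratin *krt18a.1* (log2 -0.20) did not pass in either fit (edgeR adjusted p = 0.581 and 0.241). *krt8* had no call without the block, with log2 differences of -0.234, -0.303 and -0.249 between libraries of number 1, 2 and 3. At an unadjusted p under 0.05, 18 list members were lower and 7 higher (edgeR). Summed over the 11 defining markers of the layer, the level was 12600.0 to 14550.0 CPM in unaffected, 9625 to 10890.0 CPM in affected and 10770.0 to 13930.0 CPM in wild-type libraries. This sum holds the called *krt5*, *cyt1* and *cyt1l*, so it is no separate evidence. The part of the amount of this tissue in the pooled embryos was not tested. The number of list members called lower was 2, 2 and 7 without affected library 1, 2 or 3 and 2, 6 and 3 without unaffected library 1, 2 or 3.

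A list of calpains and their inhibitor had 13 tested members, of which 2 fell and 0 rose, against 1.11% and 1.88% of all genes. With the block 3 fell and 0 rose, against 3.37% and 4.88%. The list's median log2 fold change was -0.09, and 5 members were positive. *cast* (ENSDARG00000058693), or calpastatin, the inhibitor of calpain proteases, was at 288, 291 and 283 CPM in the unaffected and 148, 155 and 156 CPM in the affected libraries, with hardly any spread within a group (log2 difference -0.91 with SE 0.08, adjusted p = 0.00159 by edgeR). *capn2b* (ENSDARG00000055592), a calpain, was at 7.47, 14 and 13.4 CPM in the unaffected and 2.52, 3.83 and 4.57 CPM in the affected libraries (log2 difference -1.67 with SE 0.33, adjusted p = 0.0287 by edgeR), and passed in 1 of the 6 fits without a mutant library. The other 11 of 13 tested members of the calpain list did not pass without the block. *capn9*, named above, was counted on the enveloping layer list. Of 68 tested genes for adhesion, junctions and actomyosin, 4 fell and 2 rose, against 1.11% and 1.88% of all genes, with 10 and 2 under the block, against 3.37% and 4.88%. The count of rises was near the share over all genes without the block and below it with the block. Those that fell were *rock2* (ENSDARG00000004877; log2 -0.76, adjusted p = 0.00965), a kinase that activates myosin, *myh9* (ENSDARG00000063295; log2 -0.49, adjusted p = 0.017), a non-muscle myosin heavy chain, *fn1* (ENSDARG00000006526; log2 -0.84, adjusted p = 0.018), or fibronectin, and the large cadherin *dchs1b* (log2 -0.58, adjusted p = 0.0497). Those that rose were *cdh6* (log2 0.72, adjusted p = 0.0193), a cadherin, and *flnb* (ENSDARG00000092281; log2 1.21, adjusted p = 0.0236), a filamin that crosslinks actin. *rock2* passed in 5 of the 6 fits, and *dchs1b* in 0. Of 37 tested microtubule genes, 1 fell, the kinesin *kif5b* (ENSDARG00000103394; log2 -0.60, adjusted p = 0.0495), against 1.11% of all genes, and 0 rose and 2 fell with the block.

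Several genes of the yolk syncytial layer rose in affected embryos. Of 32 tested genes for this layer and its lipoproteins, 7 rose and 1 fell, against 1.88% and 1.11% of all genes, and 12 rose and 1 fell with the block, against 4.88% and 3.37%. The median log2 fold change was 0.46, and 26 of the 32 were positive. *mxtx1* (ENSDARG00000069382), a homeobox gene of this layer, was at 19.8, 27.6 and 22.2 CPM in the unaffected and 39.6, 48.8 and 42.3 CPM in the affected libraries (log2 difference 0.91 with SE 0.14, adjusted p = 0.0146 by edgeR). *hnf4a* (ENSDARG00000021494), a nuclear receptor that controls lipid genes, was at 64.4, 73.4 and 47.6 CPM in the unaffected and 120.5, 137 and 103 CPM in the affected libraries (log2 difference 0.96 with SE 0.17, adjusted p = 0.0215 by edgeR). Neither gene overlapped between the groups, and wild-type was at 22.7, 23.2 and 19.2 CPM for *mxtx1* and 37.2, 48.4 and 43.5 CPM for *hnf4a*.

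The secretion genes that rose were *mttp* (log2 0.69, adjusted p = 0.0288), which loads lipid onto apolipoprotein B, *apoc2* (ENSDARG00000092155) (log2 1.09, adjusted p = 0.0229) and *apoc1* (log2 0.61, adjusted p = 0.0461), which encode small apolipoproteins, and both identifiers named *afp4* (ENSDARG00000041490, log2 0.65, adjusted p = 0.0486; ENSDARG00000095863, log2 0.65, adjusted p = 0.0286), whose product is related to apolipoproteins. *apoa1b* (log2 0.41, adjusted p = 0.0938) and *apoeb* (log2 0.46, adjusted p = 0.074) passed only with the block (edgeR adjusted p = 0.0488 and 0.0222), and *apobb.1* in neither fit (log2 0.16, adjusted p = 0.711). The member that fell, *ctslb* (log2 -2.02, adjusted p = 0.0481), is a cathepsin L gene that in zebrafish also marks the hatching gland, and its neighbour by name, *ctslb.4*, fell too (log2 -2.14, adjusted p = 0.0289). Summed over 9 markers of the layer, the level was 2751 to 3279 CPM in unaffected, 3618 to 4367 CPM in affected and 3136 to 3343 CPM in wild-type libraries, without overlap between the mutant groups. This sum holds the called *mxtx1*, *hnf4a* and *mttp*, so it is no separate evidence. *mttp* alone averaged 988 CPM in unaffected and 1594 CPM in affected libraries. How far the amount of yolk syncytial layer in the pooled embryos enters these values was not tested. The number of list members called higher was 2, 0 and 6 without affected library 1, 2 or 3 and 0, 4 and 0 without unaffected library 1, 2 or 3.

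Of 12 tested endodermal regulators 1 rose, *gata6* (ENSDARG00000103589), a zinc finger transcription factor, from 129, 133 and 81.7 CPM in the unaffected to 228, 239 and 168 CPM in the affected libraries (log2 difference 0.89 with SE 0.18, adjusted p = 0.0343 by edgeR). With the block 5 of the 12 rose and 0 fell, among them *sox32* (adjusted p = 0.0141), the switch gene of endoderm fate, and *gata5* (adjusted p = 0.0142, edgeR). Over all genes, 1.88% rose and 1.11% fell without the block, and 4.88% and 3.37% with it. The 2 endoderm markers summed to 84.95 to 115.9 CPM in unaffected and 109.5 to 142.9 CPM in affected libraries, which overlapped. In wild-type libraries they summed to 64.2 to 79.0 CPM. *ndr1* (ENSDARG00000057096), a Nodal ligand of the margin and yolk syncytial layer, was at 0.431, 0.246 and 0.158 CPM in the unaffected and 1.62, 1.55 and 0.658 CPM in the affected libraries (log2 difference 2.19 with SE 0.45, adjusted p = 0.0321 by edgeR). It was close to the detection floor in unaffected libraries and passed in 1 of the 6 fits without a mutant library. The other 13 of 14 tested Nodal and Lefty genes did not pass without the block, and over the list 3 rose and 0 fell with the block. Germ cell markers summed to 29.0 to 47.4 CPM in unaffected and 49.98 to 65.0 CPM in affected libraries, while 0 of 11 tested germ plasm genes passed without the block (edgeR, 4 at an unadjusted p under 0.05; DESeq2 called 1), and 1 rose and 0 fell with the block.

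**Figure D4:**
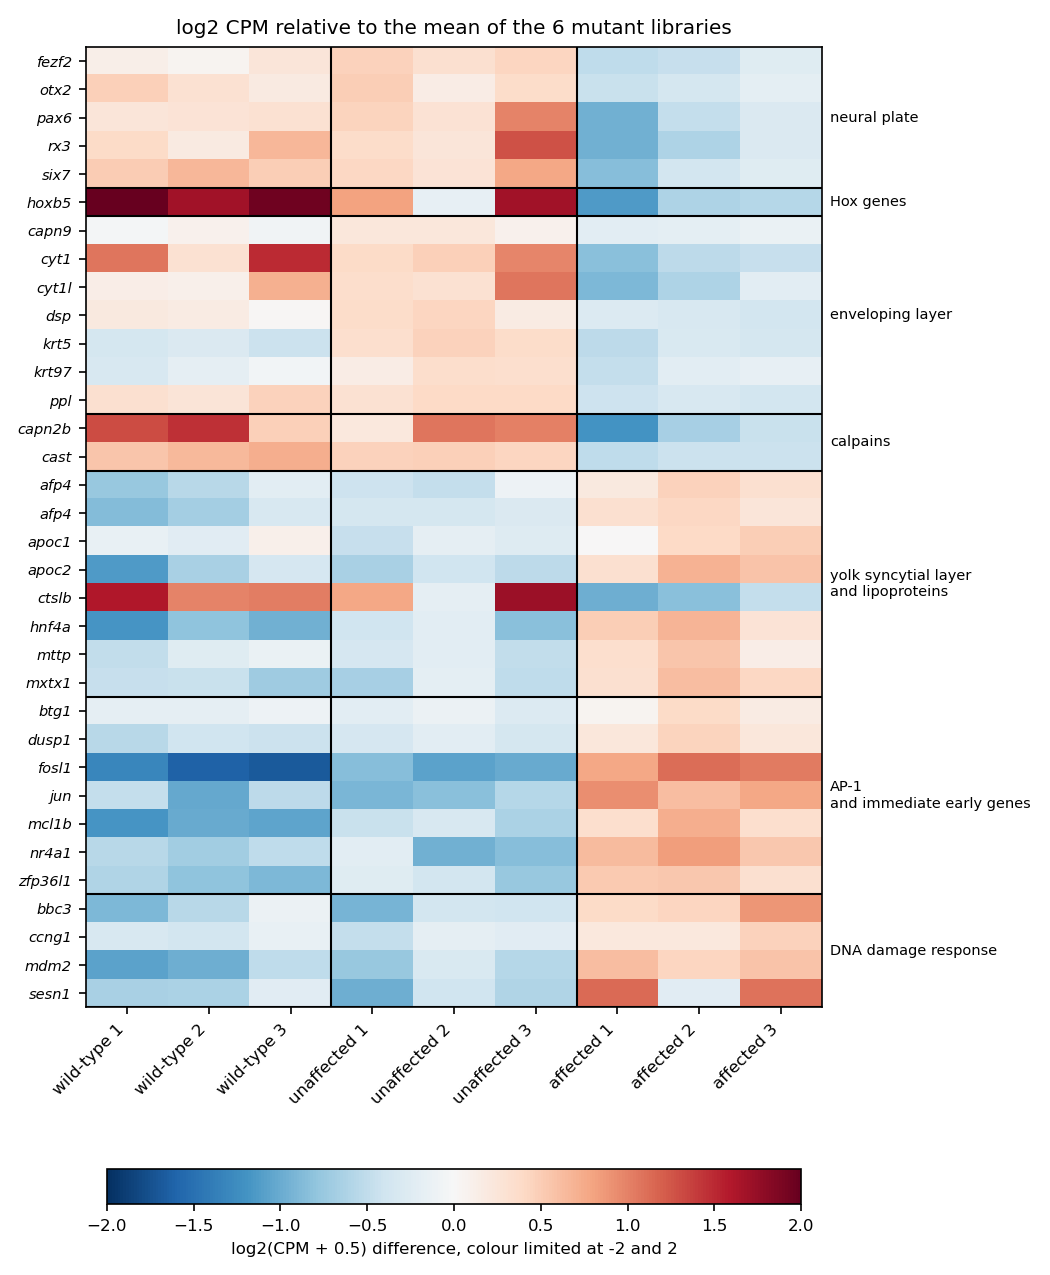
log2(CPM + 0.5) of every called member of 7 gene lists in the 9 libraries (columns), as the difference from the mean of the 6 mutant libraries, with colours limited at -2 and 2. The neural plate, Hox, enveloping layer and calpain genes are lower (blue) in the affected columns, and the yolk syncytial layer genes except ctslb, the AP-1 genes and the DNA damage response genes are higher (red), with sesn1 of affected library 2 close to the unaffected libraries.

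Several transcription factors of the anterior neural plate fell in affected embryos. Of 45 tested neural plate genes, 5 fell and 0 rose, against 1.11% and 1.88% of all genes. With the block 15 fell and 0 rose, against 3.37% and 4.88%. Only 7 had a positive log2 fold change, with a median of -0.74 against -0.007 over all genes. The expression filter could admit a gene through its highest group, so these signs and this median are no evidence by themselves. With at least 10 counts in every library, 37 were tested and 5 fell without the block. *fezf2* (ENSDARG00000070677), a regulator of the forebrain, was at 55.7, 50.3 and 54.1 CPM in the unaffected and 28, 29.1 and 33.8 CPM in the affected libraries (log2 difference -0.82 with SE 0.10, adjusted p = 0.0065 by edgeR). *rx3* (ENSDARG00000052893), which specifies the eye field, was at 27.7, 25.5 and 52.8 CPM in the unaffected and 10.8, 13.8 and 17.5 CPM in the affected libraries (log2 difference -1.33 with SE 0.28, adjusted p = 0.0346 by edgeR). Unaffected library 3 stood above the others for *rx3*, and the groups did not overlap for either gene. *six7* (log2 -0.97, adjusted p = 0.0215) and *pax6* (ENSDARG00000045936; log2 -1.19, adjusted p = 0.0198), both eye field genes, and *otx2* (log2 -0.67, adjusted p = 0.0198), a gene of the forebrain and midbrain, also fell (edgeR). The general neural genes *sox3* (log2 -0.22, adjusted p = 0.167) and *sox19a* (log2 -0.08, adjusted p = 0.713) did not pass. Neural plate marker sums, which hold the called *otx2*, were 1208 to 1235 CPM in unaffected and 1075 to 1125 CPM in affected libraries. The number of list members called lower was 1, 1 and 6 without affected library 1, 2 or 3 and 1, 14 and 2 without unaffected library 1, 2 or 3.

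All 20 tested Hox genes, of 38 matched, had a negative log2 fold change, with a median of -1.54. The expression filter could admit a gene through the group where it was highest, so this count of signs is no evidence by itself. Affected libraries were all lower in 7 of the 20, against 12.1% of all genes. The 38 matched genes summed to 150.3, 93.92 and 234.5 CPM in the unaffected and 60.54, 60.15 and 97.54 CPM in the affected libraries. These sums overlapped and varied widely among unaffected libraries. Of the 20, 1 passed without the block, against 1.11% of all genes called lower, and 7 with it, against 3.37%. With at least 10 counts in every library 9 were tested, and with only the 6 mutant libraries 16. In either fit 0 passed without the block (edgeR). *hoxb5* (ENSDARG00000054030) was at 1.94, 0.739 and 3.95 CPM in the unaffected and 0.138, 0.404 and 0.439 CPM in the affected libraries (log2 difference -2.74 with SE 0.59, adjusted p = 0.0384 by edgeR), and wild-type was higher still at 5.51, 3.95 and 4.88 CPM. *hoxb1b* (ENSDARG00000054033), one of the first Hox genes to be expressed, was at 64.1, 43.5 and 84.8 CPM in the unaffected and 28.8, 28.3 and 42.3 CPM in the affected libraries and passed only with the block (edgeR adjusted p = 0.0555 without and 0.0079 with it). Hox genes are switched on one after another as the embryo ages. The number of Hox genes called lower was 0, 0 and 2 without affected library 1, 2 or 3 and 0, 8 and 0 without unaffected library 1, 2 or 3. Maternal transcripts are cleared as the embryo ages. Among 26 tested, 23 were positive with a median of 0.40. As for the Hox genes, these signs and this median are no evidence by themselves. Without the block 0 passed (edgeR; 9 at an unadjusted p under 0.05; DESeq2 called 2), and 4 rose with the block. Of 16 tested genes for maternal activators and pluripotency, 0 passed (edgeR; 5 at an unadjusted p under 0.05; DESeq2 called 1), and 1 rose and 2 fell with the block. With the block, 4.88% of all genes rose and 3.37% fell. The part of developmental stage in any of the differences was not tested.

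Few mesodermal genes passed without the block. Over all genes, 1.88% rose and 1.11% fell without the block, and 4.88% and 3.37% with it. The counts of the presomitic and notochord lists below were near these shares. Of 39 tested genes of the somite clock and presomitic mesoderm, *snai1a* (log2 0.80, adjusted p = 0.0343), a repressor active in mesodermal cells that migrate, rose, and *tbx16l* (log2 -0.72, adjusted p = 0.0235), a T-box gene of the posterior mesoderm, fell without the block (edgeR), and 3 rose and 2 fell with the block. *shh* (ENSDARG00000038867; log2 -0.95, adjusted p = 0.0327), the Hedgehog ligand of the notochord, fell as the sole call without the block among 27 tested notochord and organizer genes, whereas *tbxta* (log2 0.07, adjusted p = 0.846) and *chrd* (log2 -0.15, adjusted p = 0.448) did not pass, and 2 rose and 1 fell with the block. Summed notochord markers (201 to 231 CPM in unaffected, 205 to 233 CPM in affected libraries) and presomitic markers (713 to 901 CPM and 682 to 944 CPM) overlapped. Among 17 tested genes of ventral and posterior mesoderm 0 passed without the block (edgeR; 5 at an unadjusted p under 0.05; DESeq2 called 3), and 3 rose and 0 fell with the block.

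Of the signalling lists, few members passed without the block. *wnt11f2* (ENSDARG00000004256), a Wnt ligand that acts in the polarity pathway of gastrulation movements, was at 38.2, 32.5 and 36.7 CPM in the unaffected and 63.8, 58.7 and 57.4 CPM in the affected libraries (log2 difference 0.74 with SE 0.12, adjusted p = 0.0174 by edgeR), without overlap. *rspo3* (log2 1.60, adjusted p = 0.0229), an R-spondin that enhances Wnt signalling, rose as well, and these were 2 of 34 tested Wnt genes, of which 3 rose and 0 fell with the block. *fgf8* (ENSDARG00000003399; log2 0.59, adjusted p = 0.0252) was the sole call without the block among 25 tested Fgf genes, of which 3 rose and 0 fell with the block, and its feedback target *dusp6* (log2 0.19, adjusted p = 0.453) did not pass. *bmp2* (ENSDARG00000041430; log2 0.54, adjusted p = 0.0399) alone passed without the block among 28 tested BMP genes, of which 3 rose and 0 fell with the block, while the target *id1* (log2 -0.02, adjusted p = 0.95) did not pass. *rdh10* (ENSDARG00000012369; log2 0.54, adjusted p = 0.0287), which makes retinal on the way to retinoic acid, alone passed without the block among 20 tested retinoic acid genes, of which 2 rose and 2 fell with the block, while *cyp26a1* (log2 -0.23, adjusted p = 0.22) did not pass. Over all genes, 1.88% rose and 1.11% fell without the block, and 4.88% and 3.37% with it. Without the block, the counts of the Fgf, BMP and retinoic acid lists were near these shares. *wnt11f2*, *rspo3*, *fgf8*, *bmp2* and *rdh10* each passed in at most 2 of the 6 fits without a mutant library.

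Several immediate early genes rose. Of 26 tested genes of AP-1, the dimer of Jun and Fos proteins, and of the immediate early response, 7 rose and 0 fell. Over all genes, 1.88% rose and 1.11% fell. With the block 9 rose and 2 fell, against 4.88% and 3.37%, and the list's median log2 fold change was 0.33. *jun* (ENSDARG00000043531) was at 8.66, 9.11 and 11.1 CPM in the unaffected and 32.1, 25.8 and 28.8 CPM in the affected libraries (log2 difference 1.59 with SE 0.17, adjusted p = 0.00409 by edgeR). *fosl1* (ENSDARG00000015355), a Fos family partner of Jun, was at 1.8, 1.48 and 1.55 CPM in the unaffected and 6.58, 8.44 and 7.99 CPM in the affected libraries (log2 difference 2.25 with SE 0.20, adjusted p = 0.00159 by edgeR). For both, the lowest affected library was far above the highest unaffected one, and wild-type had 11.8, 8.0 and 11.5 CPM of *jun* and 1.17, 0.843 and 0.788 CPM of *fosl1*. *nr4a1*, an orphan nuclear receptor (log2 1.70, adjusted p = 0.0198), *mcl1b*, of the Bcl2 family (log2 0.94, adjusted p = 0.00965), *dusp1*, a phosphatase of MAP kinases (log2 0.60, adjusted p = 0.0134), and *btg1*, a brake on proliferation (log2 0.41, adjusted p = 0.0491), rose too (edgeR). Of the pair of identifiers named *zfp36l1*, which encodes a protein that promotes mRNA decay, ENSDARG00000021443 rose (log2 0.91, adjusted p = 0.0147) and ENSDARG00000016154 did not pass (log2 -0.36, adjusted p = 0.0634). The number of list members called higher was 4, 3 and 6 without affected library 1, 2 or 3 and 4, 6 and 5 without unaffected library 1, 2 or 3.

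Of 22 tested genes of the DNA damage response, 4 rose and 0 fell, against 1.88% and 1.11% of all genes. With the block 11 rose and 0 fell, against 4.88% and 3.37% of all genes. The median log2 fold change was 0.60. *mdm2* (ENSDARG00000033443), a ubiquitin ligase, was at 28.8, 39.6 and 32.8 CPM in the unaffected and 75.3, 66.1 and 72.9 CPM in the affected libraries (log2 difference 1.08 with SE 0.16, adjusted p = 0.0134 by edgeR). *bbc3* (ENSDARG00000069282), which encodes the cell death activator Puma, was at 13, 19.6 and 19 CPM in the unaffected and 33.1, 34.1 and 47 CPM in the affected libraries (log2 difference 1.15 with SE 0.23, adjusted p = 0.0295 by edgeR). The groups did not overlap for either gene. *ccng1* (log2 0.59, adjusted p = 0.0278), a cyclin G, and *sesn1* (log2 1.48, adjusted p = 0.0433), a sestrin, were the others. Between libraries of number 1, 2 and 3, *sesn1* differed by 2.198, 0.177 and 1.734 on the log2 scale. The count of DNA damage response genes called higher was 0, 1 and 2 without affected library 1, 2 or 3 and 0, 5 and 1 without unaffected library 1, 2 or 3.

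Of 39 tested genes of the endoplasmic reticulum stress and Atf4 response, 5 rose and 0 fell, against 1.88% and 1.11% of all genes. With the block 10 rose and 1 fell, against 4.88% and 3.37%. Of the 39, 32 were positive (median 0.35). *slc3a2* (ENSDARG00000037012) was at 445, 504 and 359 CPM in the unaffected and 758, 965 and 678 CPM in the affected libraries (log2 difference 0.88 with SE 0.16, adjusted p = 0.0236 by edgeR). It pairs with *slc7a5* (log2 1.04, adjusted p = 0.0147) in an amino acid transporter of the cell membrane. *trib3*, a pseudokinase induced by stress (log2 0.67, adjusted p = 0.0132), *herpud1*, which serves the breakdown of misfolded proteins (log2 0.74, adjusted p = 0.0387), and the chaperone *calr* (log2 1.37, adjusted p = 0.0347) also rose (edgeR). The chaperone *hspa5* passed only with the block (0.61; adjusted p = 0.104 without and 0.0358 with it). The count of these genes called higher was 0, 0 and 3 without affected library 1, 2 or 3 and 1, 4 and 1 without unaffected library 1, 2 or 3. Of 32 tested genes for heat shock and oxidative stress, 0 passed (edgeR; 6 at an unadjusted p under 0.05; DESeq2 called 3) and 4 rose with the block.

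Of 20 tested apoptosis genes, 4 rose and 1 fell with the block, against 4.88% and 3.37% of all genes. Without the block 3 rose, against 1.88%. The 3 were *bcl2l10* (ENSDARG00000026766) (log2 0.92, adjusted p = 0.00556) and *bcl2l1* (log2 0.41, adjusted p = 0.0409), both of the Bcl2 family that guards mitochondria, and *diabloa* (log2 0.66, adjusted p = 0.0136), which antagonises inhibitors of apoptosis once released from them. *bcl2l10* was at 87.4, 87.6 and 78 CPM in the unaffected and 163, 173 and 141 CPM in the affected libraries, well apart, and passed in all 6 fits without a mutant library. *bbc3* and *mcl1b*, named above, were counted on other lists. Of 62 tested genes of the cell cycle and replication, 2 rose, *rbl2* (log2 1.68, adjusted p = 0.0484), of the retinoblastoma family, and *cdkn1b* (ENSDARG00000054271; log2 0.48, adjusted p = 0.0457), an inhibitor of cyclin-dependent kinases, and 0 fell. This count was close to the 1.88% called higher over all genes, and 7 rose and 2 fell with the block, against 4.88% and 3.37%. Between libraries of number 1, 2 and 3, *rbl2* differed by 2.617, 0.265 and 1.919 on the log2 scale, hardly at all for number 2. The proliferation genes *mki67* (log2 0.03, adjusted p = 0.918) and *ccnd1* (log2 -0.04, adjusted p = 0.915) did not pass, and the list's median was 0.03.

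**Figure D5:**
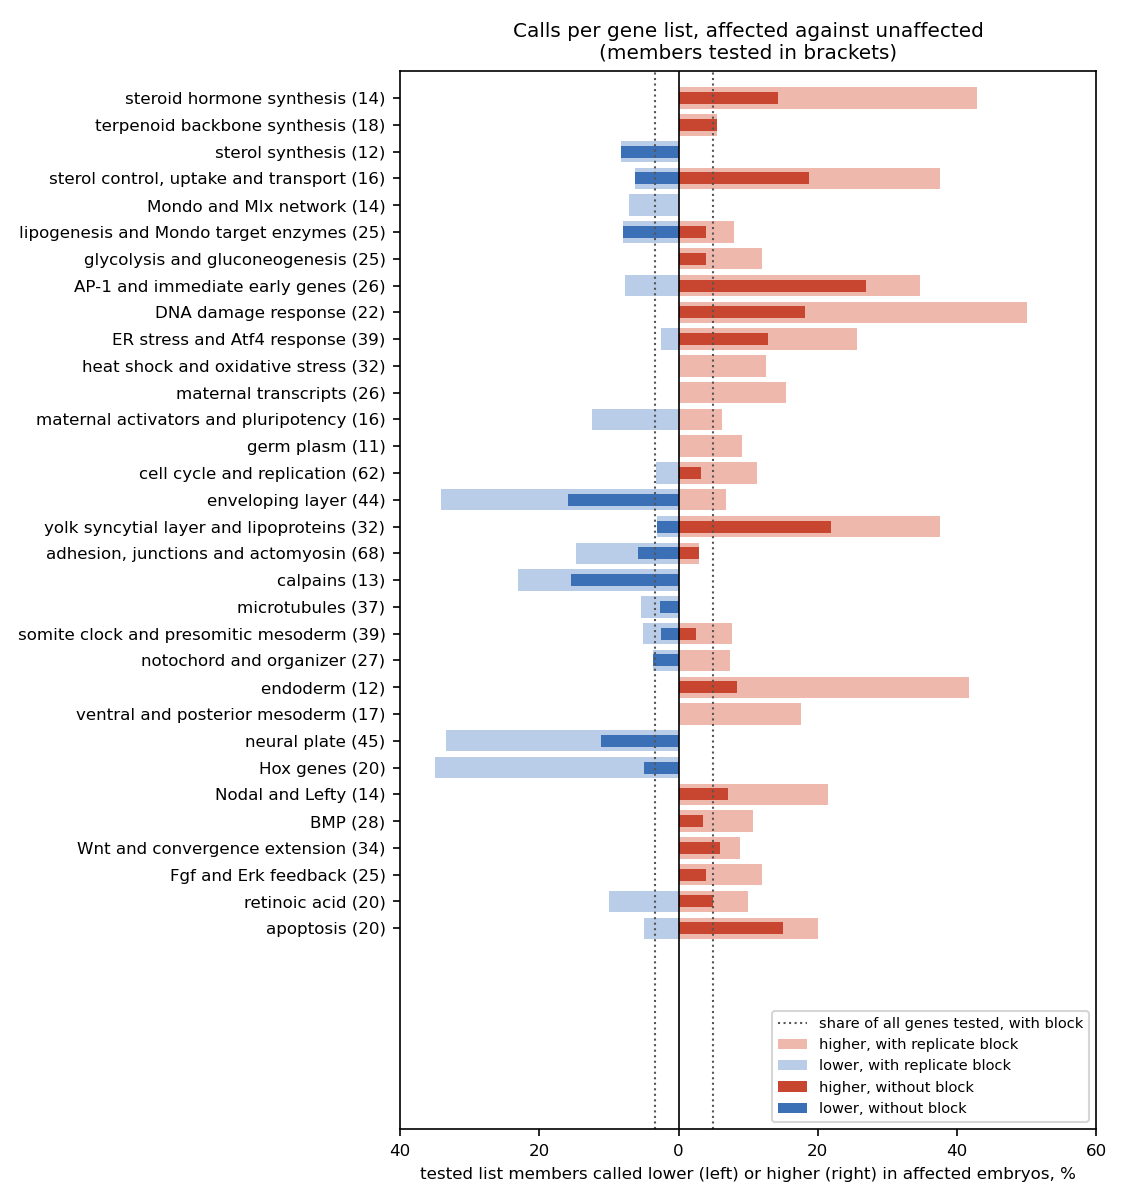
Share of the tested members of each gene list called higher (right, red) or lower (left, blue) in affected embryos, without the replicate block (dark, narrow bars) and with it (pale, wide bars). Dotted lines give the shares of all genes tested with the block, 4.88% higher and 3.37% lower, and the DNA damage response, steroid hormone and endoderm lists reach farthest to the right, the Hox, enveloping layer and neural plate lists farthest to the left.

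Among genes of steroid hormone synthesis, the enzyme at the entry rose. Of 14 tested of 26 matched, 2 rose and 0 fell, against 1.88% and 1.11% of all genes. With the block 6 rose, against 4.88%. *cyp11a1* (ENSDARG00000002347), the enzyme that converts cholesterol into pregnenolone, was at 154, 172 and 141 CPM in the unaffected and 253, 248 and 261 CPM in the affected libraries, without overlap, and passed in all 6 fits without a mutant library (log2 difference 0.71 with SE 0.09, adjusted p = 0.00885 by edgeR). *stard3* (log2 0.57, adjusted p = 0.0217), which encodes a cholesterol-binding protein of late endosomes, was the other. *hsd3b2* (log2 0.50, adjusted p = 0.113), which acts after *cyp11a1*, passed only with the block (edgeR adjusted p = 0.0347). The median log2 fold change of the list was 0.42. The count of steroid genes called higher was 1, 1 and 2 without affected library 1, 2 or 3 and 1, 4 and 1 without unaffected library 1, 2 or 3.

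Upstream of pregnenolone, calls were few and went both ways. Over all genes, 1.88% rose and 1.11% fell without the block, and 4.88% and 3.37% with it. *hmgcs1* (ENSDARG00000103025), an early enzyme of the mevalonate route, was at 41.1, 38.3 and 36.7 CPM in the unaffected and 67.7, 56.4 and 60.4 CPM in the affected libraries (log2 difference 0.67 with SE 0.10, adjusted p = 0.0143 by edgeR) and was the only call among 18 tested terpenoid backbone genes, a call that was lost without affected library 1 or unaffected library 1 or 3. *sqle* (ENSDARG00000079946; log2 -0.91, adjusted p = 0.0286), squalene epoxidase, fell among 12 tested sterol synthesis genes, a call that was lost when any mutant library but unaffected library 2 was left out. *nsdhl* (ENSDARG00000099315), a later enzyme of that route, was at 1.8, 1.72 and 1.71 CPM in the unaffected and 1.93, 1.48 and 1.79 CPM in the affected libraries, which overlapped (log2 difference -0.01 with SE 0.25, adjusted p = 0.991 by edgeR). Among 16 tested genes for the control, uptake and transport of sterols, *npc2* (ENSDARG00000090912; log2 0.84, adjusted p = 0.0134), which carries cholesterol out of lysosomes, *insig1* (log2 0.65, adjusted p = 0.0229), which holds back sterol synthesis, and *soat1* (log2 0.75, adjusted p = 0.028), which esterifies cholesterol, rose, and the LDL receptor gene *ldlrb* fell (log2 -0.77, adjusted p = 0.0134; edgeR), and over this list 6 rose and 1 fell with the block. The count of these called higher was 1, 0 and 3 without affected library 1, 2 or 3 and 0, 2 and 3 without unaffected library 1, 2 or 3. For *ldlrb*, wild-type (21.9, 19.5 and 17.4 CPM) lay nearer the affected (16.4, 14.7 and 17.2 CPM) than the unaffected libraries (28.5, 27.9 and 25.8 CPM).

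In fatty acid synthesis the affected embryos combined more *mid1ip1a* with slightly less of the carboxylase its mammalian counterpart acts on. *acacb* (ENSDARG00000061994) (log2 -0.50, adjusted p = 0.0236) and *acaca* (ENSDARG00000078512) (log2 -0.40, adjusted p = 0.0384), the acetyl-CoA carboxylases, fell, *acacb* from 228, 241 and 197 CPM in the unaffected to 154, 164 and 151 CPM in the affected libraries. *acacb* passed in 1 and *acaca* in 0 of the 6 fits without a mutant library. Among the others *fasn* (log2 0.13, adjusted p = 0.609), fatty acid synthase, and *hk2* (log2 -0.44, adjusted p = 0.159), hexokinase, did not pass (edgeR), and 22 of 25 tested genes of lipogenesis and Mondo target enzymes were without a call, while over this list 2 rose and 2 fell with the block. *pck2* (log2 0.58, adjusted p = 0.0147), a mitochondrial enzyme of gluconeogenesis, rose among 25 tested genes of glycolysis and gluconeogenesis, of which 3 rose and 0 fell with the block. Of the 14 tested members of the Mondo and Mlx network 0 passed without the block (edgeR; 1 at an unadjusted p under 0.05; DESeq2 called 0), and 0 rose and 1 fell with the block. *mlx* (log2 -0.03, adjusted p = 0.901) and *mlxip* (log2 -0.32, adjusted p = 0.611) were among those without a call (edgeR). Over all genes, 1.88% rose and 1.11% fell without the block, and 4.88% and 3.37% with it.

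Genes outside these groups were among the largest changes of genes whose mean log2 CPM over all libraries reached 2. Among rises, *gcnt7* (ENSDARG00000040608), a glycosyltransferase gene, led with 2.66, 1.97 and 0.537 CPM in the unaffected and 16, 11.4 and 9.02 CPM in the affected libraries (log2 difference 2.83 with SE 0.44, adjusted p = 0.0146 by edgeR), without overlap. *gcnt7* reached this mean level only through the affected libraries, with 2.09, 1.72 and 1.35 CPM in wild-type. Next came *arl13a* (log2 2.02, adjusted p = 0.0174), a small GTPase gene, and *tbx2* (ENSDARG00000006120; log2 1.75, adjusted p = 0.0174), a T-box gene. *bcl3* (log2 1.74, adjusted p = 0.0136) and *nfkbiaa* (log2 1.46, adjusted p = 0.0198) encode regulators of NF-kappaB. *tfeb* (log2 1.31, adjusted p = 0.0215) encodes a regulator of lysosomal genes. *lrmp* (log2 1.49, adjusted p = 0.0217), *pnp4a* (log2 1.48, adjusted p = 0.031), a purine nucleoside phosphorylase gene, the ubiquitin ligase gene *rnf14* (ENSDARG00000078683, log2 1.49, adjusted p = 0.0239) and the anion exchanger gene *slc4a2* (ENSDARG00000028173, log2 1.34, adjusted p = 0.0471) completed the rises (edgeR). Between libraries of number 1, 2 and 3, *slc4a2* differed by 2.243, 0.33 and 1.559 on the log2 scale.

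Among falls, *tgm1* (ENSDARG00000017799), a transglutaminase that crosslinks the envelope of outer epithelial cells, was at 6.68, 6.16 and 9.28 CPM in the unaffected and 2.17, 2.56 and 3.01 CPM in the affected libraries (log2 difference -1.51 with SE 0.30, adjusted p = 0.0287 by edgeR). *fam83b* (log2 -1.67, adjusted p = 0.0132), *adgrf8* (log2 -1.62, adjusted p = 0.0217), an adhesion receptor gene, *eps8l1a* (log2 -1.45, adjusted p = 0.0215), related to an actin regulator, and *lgals3b* (log2 -1.39, adjusted p = 0.0399), a galectin gene, fell as well. So did *sting1* (log2 -1.44, adjusted p = 0.0497), an adaptor in the sensing of cytosolic DNA, *trim35-9* (log2 -1.49, adjusted p = 0.022), and the kinase genes *camk2d1* (log2 -1.36, adjusted p = 0.0252) and *rps6ka5* (log2 -1.33, adjusted p = 0.022; edgeR). *sting1* was at 16.2 ± 4.73 CPM in unaffected, 5.95 ± 2.67 CPM in affected and 5.04 ± 1.66 CPM in wild-type embryos (SD, n = 3), so the affected mean lay near the wild-type one.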

How the data were processed

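RNA of whole zebrafish embryos was sequenced by the authors as strand-specific, ribosome-depleted total RNA libraries, although the labels name polyA RNA. Raw counts of exonic read pairs were deposited for each gene. The authors mapped paired reads to GRCz11 with STAR (2.4.0i in the submitters' processing notes, which also name bcl2fastq 2.17.1.14) and counted unique pairs on Ensembl genes. Use of the strand in counting is not stated, so overlapping, antisense and near-identical genes are uncertain. Intronic counts and the knockdown experiment were not analysed here.

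Of 32055 identifiers, 28986 had a symbol in a table of Ensembl names, printed in lower case. No identifier matched *mlxipl*, a gene of the naming rule, which was not analysed here. The tests used edgeR 4.0.16 (limma 3.58.1, R 4.3.3): filterByExpr by group (16962 genes), TMM, a quasi-likelihood fit of all 9 libraries with 3 groups, a two-sided test, and Benjamini-Hochberg adjustment over all genes with a threshold of 0.05. The biological coefficient of variation was 0.176. Libraries of a mutant group differed from each other by more than counting noise (chi-square per degree of freedom of 9.86 or more), so none was taken as a library deposited again; this does not show separate clutches. Standard errors came from the coefficient and its F statistic. The steps were tested on simulated data. DESeq2 1.42.0, the authors' tool, the replicate number as a block (equal-numbered libraries correlated in their deviations at 0.17, 0.24 and 0.46), other scaling and filters, and leaving out each library were the alternatives. No sequencing batch is labelled. The sample numbers of the affected libraries do not follow on from those of the unaffected and wild-type libraries. A difference in handling along this split could not be told apart from the phenotype.

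The 32 gene lists (973 names, 994 identifiers, 292 of them matched without a final a or b, and 853 tested; 38 names unmatched) were written by hand. No identifier was counted on more than a single list. The lists and the comparison were chosen with earlier results of these data known, so a list count is not independent evidence. As the expression filter could admit a gene through the group where it was highest, a list's signs and median are no evidence by themselves. Named are the 15 largest rises and falls among called genes whose mean log2 CPM reached 2, with a plain symbol and groups that do not overlap, called list members and up to 4 abundant others per list, genes the study turns on, genes called in all 6 fits that leave out a mutant library, and the 10 strongest calls found only with the block. Some genes that met the rule are not reported here and were left out of the lists, and of list members without a call only some are printed.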

Additional observations from a re-analysis of the deposited data

How the results depend on the processing

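The 507 calls, 319 higher, 188 lower and 176 of at least 2-fold, stayed within 1.5 times of these counts with library size scaling, no low-count filter, at least 10 counts in every library, or only the 6 mutant libraries. DESeq2 gave 1242 calls (733 higher, 509 lower, 339 of at least 2-fold), with 2306 genes left without an adjusted p. With the replicate block, which assumes that equal numbers are pairs, there were 1399 calls (827, 572 and 343) against 507 without it. With the replicate block on the 6 mutant libraries alone, a fit chosen after seeing the data for the block count, there were 2893 (1625, 1268 and 495). The cause of these larger counts was not tested. Leaving out single libraries gave 42 to 697 calls, 23 to 435 higher, 14 to 262 lower and 24 to 252 of at least 2-fold, and 394 to 1073 calls with the replicate block. The leave-outs of wild-type libraries and those under the block were chosen after seeing the data. Where a leave-out leaves a group with 2 libraries, the spread is shared with the other groups.

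None of the 254 named genes turned direction once called, under any alternative run. Many of the named genes had no call in the fit without the block, and only those with a call could lose it. Without the block, between 18 and 80 lost their call when a mutant library was left out. At 3 libraries a group, small changes of single genes are near the limit of what could be called: the median standard error was 0.19 on the log2 scale, or 0.15 with the block. Motifs in promoters were not analysed, as no sequence was used here.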

Other observations

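The 10 genes with the smallest adjusted p under the replicate block among those that did not pass without it comprised 6 that were lower and 4 that were higher in affected embryos. *anxa1b* was at 55.9 ± 26.2 CPM in unaffected and 22.1 ± 6.24 CPM in affected embryos (SD, n = 3; log2 fold change -1.33, edgeR adjusted p = 0.0518 without and 0.00176 with the block). *anxa1d* (-1.33; block adjusted p = 0.00179), *krt99* (-0.82; 0.00216), the actin bundling gene *pls3* (-1.08; 0.00176), the kinase gene *camk1* (ENSDARG00000029474; -0.94; 0.00176) and the urate oxidase gene *uox* (-0.74; 0.00182) were lower in affected embryos under the block. The RNA binding protein gene *rbm47* (0.74; 0.00145), *castor2* (0.71; 0.00176), which encodes an arginine sensor family member of the mTOR pathway, *dmxl2* (0.67; 0.00222) and *cobll1b* (0.59; 0.00179) were higher (fold changes from the fit without the block).

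Identifiers named *metazoa_srp*, copies of the RNA of the signal recognition particle, had positive log2 fold changes in 60 of 60 tested, with a median of 0.38, and 6 were called higher and 0 lower (edgeR). Among all genes tested, 49% were positive, 1.88% were called higher and 1.11% lower. Whether these copies vary independently of each other was not tested. Another RNA gene of that particle, *rn7sl1*, had a log2 fold change of 0.06 and did not pass (edgeR adjusted p = 0.839).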
